A study of Mus musculus with 6 samples.

Results

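The 7 genes described here encode receptors and ligands of the B7 and CD28 family, *Cd28*, *Ctla4*, *Icos*, *Cd80*, *Cd86*, *Icosl* and *Cd276*. They were chosen by name, by a rule that uses no measured value, and are 7 of the 31053 genes of a single-cell mRNA-seq table from CT26 tumors. CT26 is a mouse colon carcinoma line, grown here in Balb/c female mice. The sample labels list 6 tumors, 2 in each of 3 groups, given vehicle, a low dose or a high dose of a mouse surrogate antibody that blocks PD-1 and carries GITR-L, the ligand of the costimulatory receptor GITR. The labels give the high dose as 30 mg/kg and the low dose as 10 mg/kg in the protocol but as 30 mg/kg among the sample characteristics. The paper names a single dose that differs from these, and an isotype control in place of vehicle. All groups shared the tumor line, the mouse strain, collection 5 days after treatment and enrichment of CD45+ cells on beads.

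CD28 and ICOS are costimulatory receptors that strengthen the signal of the T cell receptor. CTLA-4 is an inhibitory receptor that binds the same ligands as CD28, CD80 (B7-1) and CD86 (B7-2), with higher affinity, and regulatory T cells use it to strip these ligands from antigen-presenting cells. ICOS binds ICOSL, and CD276 (B7-H3) is a family member found on stromal and tumor cells whose receptor on T cells is still debated. Dendritic cells, macrophages and B cells are the usual carriers of CD80 and CD86, and both are known to be increased by signals such as CD40.

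In the mouse genome (GRCm38, GENCODE M21 annotation, protein-coding genes), the receptors lie in a row on the plus strand of chromosome 1. *Cd28* spans 60716800 to 60773359, *Ctla4* 60887000 to 60915832 and *Icos* 60977927 to 61000320, with gaps of 113.6 kb and 62.1 kb between them. *Cd80* (38455561 to 38496335, plus strand) and *Cd86* (36603869 to 36666081, minus strand) are both on chromosome 16, 1789.5 kb apart. *Icosl* lies on chromosome 10 (78069302 to 78083913, plus strand) and *Cd276* on chromosome 9 (58524298 to 58555437, minus strand).

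RefSeq promoter sequence was matched for *Ctla4*, *Cd80*, *Icosl* and *Cd276*, 4 of the 7 genes. The 250 bases before the RefSeq start of *Ctla4* and *Cd80* are shown because these genes, a receptor and a ligand that bind each other at the protein level, had their highest levels in different labels. Both are on the plus strand of GRCm38.p6, at chr1:60908775-60909024 for *Ctla4* and chr16:38458683-38458932 for *Cd80*, and capitals mark matches to the motifs searched on both strands.
Ctla4: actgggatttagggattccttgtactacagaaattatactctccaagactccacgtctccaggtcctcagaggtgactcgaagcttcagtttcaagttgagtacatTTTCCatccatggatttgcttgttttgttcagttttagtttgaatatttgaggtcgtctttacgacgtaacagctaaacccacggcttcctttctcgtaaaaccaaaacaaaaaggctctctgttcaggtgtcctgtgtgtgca
Cd80: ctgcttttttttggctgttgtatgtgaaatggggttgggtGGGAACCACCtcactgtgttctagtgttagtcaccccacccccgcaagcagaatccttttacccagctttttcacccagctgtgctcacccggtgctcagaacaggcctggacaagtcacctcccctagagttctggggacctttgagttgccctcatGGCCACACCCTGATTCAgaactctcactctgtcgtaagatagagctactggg
The *Cd80* window held 2 matches to an NF-kB form (GGG, any 5 bases, CC), at bases 210 to 201 before the start on the plus strand and 52 to 43 on the minus strand, and 1 to the AP-1 form TGANTCA at bases 42 to 36, next to the latter. Windows of the same length held the NF-kB form in 45.8% and the AP-1 form in 6.75% of 32851 RefSeq promoters. The *Ctla4* window held neither, and 1 match to the NFAT core GGAAA, at bases 144 to 140 on the minus strand, which 55.6% of promoters hold. Neither held TATAAA, found in 12.4% of promoters. GC content was 42.4% for *Ctla4* and 52.8% for *Cd80*, against a median of 52.4% over all promoters. These matches describe letters, not binding. Both windows lie inside the gene spans given above, with 0 of 250 bases in annotated exons, and the bases after each start were found in 1 of 3 annotated transcripts of the gene, so other annotated starts exist. The *Icosl* and *Cd276* windows lay in part or in whole within annotated exons and are not shown.

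The table held raw UMI counts (unique molecular identifiers, each captured transcript counted once from its 3′ end) of 33961 cells with 12 annotation labels. They belong to libraries M1, M2, M5 and M6, with 7160 to 10294 cells and a median of 11399 to 21800.5 UMIs per cell. The library names could not be matched to tumors or treatments, so no treatment comparison was possible, no test was made over libraries, and their values are given singly. Barcodes were shared between libraries for 111 sequences. Levels are CPM, a gene's summed UMIs divided by the label's total UMIs and scaled to counts per 1000000, and can be compared for 1 gene between labels but not between genes, since capture differs by transcript. Brackets give exact 95% intervals (Poisson for levels, binomial for shares and ratios), which cover counting error only. As a check of the labels, the summed level of 4 T cell markers (*Cd3d*, *Cd3e*, *Cd3g*, *Trac*) was 2701 to 3527 CPM in the labels T cell EFF, T cell MEM, T cell Naive, T cells and NKT. It was 613 CPM in ILC, 500.3 in Myeloid, 147.5 in NK cells and 11.1 in Stroma. Markers of regulatory T cells (*Foxp3*, *Il2ra*, *Ikzf2*) summed to 1688 CPM in NKT and 1611 in T cells, against 431 in T cell EFF, and NK cell markers summed to 57.0 CPM in NKT, so NKT is used here only as the name of a label. NK cell markers summed to 647 CPM in ILC and 861 in NK cells, and were seen at 2000 UMIs in 70.3% and 81.5% of their cells, so these labels share them. B cell markers summed to 4699.7 CPM in B cells, and DC markers to 464 in DC and 38.3 in Myeloid. Myeloid also held neutrophil markers at 1369.6 CPM, seen at 2000 UMIs in 27.8% of its cells, and mast cell markers at 864.5 CPM, seen in 13.4%. In DC these sums were 105.9 and 63.0 CPM. Myeloid is therefore a mixed label, and its name too is used only as that of a label. Stroma cells carried the leukocyte gene *Ptprc* at 7.47 CPM and 4 fibroblast markers at 1424 CPM. Of the 15687 Stroma cells, 244 had at least 1000 CPM of 1 of these markers, *Col3a1*. Which Stroma cells are CT26 tumor cells was not tested, so Stroma too is used as the name of a label.

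Receptor transcripts were highest in the labels of T cells and NKT, intermediate in ILC and NK cells, and near 0 in Stroma and in the 37 cells of the label Stem cells, which held 6 UMIs of *Cd28*, 1 of *Ctla4* and 4 of *Icos*. *Cd28* had 552, 519, 533 and 500.4 CPM in NKT in libraries M1, M2, M5 and M6 (pooled 522, [500.0 to 544.5]). In T cell EFF it had 226, 309, 273 and 286 CPM (pooled 272, [268 to 277]). NKT was thus above T cell EFF in every library, with no overlap. T cell Naive (473 CPM pooled), T cells (429) and T cell MEM (407) lay between and overlapped with NKT or with one another, and the *Cd28* value of 773 CPM for T cells in M1 rested on 36 UMIs of 11 cells. ILC followed at 152, 194, 163 and 167 CPM, and NK cells at 113.5, 154, 126 and 134, with overlapping ranges. Myeloid had 71.2 CPM of *Cd28*, DC 31.5 and Stroma 1.32. The 29.4 CPM of B cells came from 13 UMIs, 76.9% of them in 1 cell.

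*Ctla4* reached 558, 767, 970.3 and 992 CPM in T cells (pooled 942, [888 to 999.6]) and 621, 795, 828 and 964 in NKT (pooled 839), ranges that overlapped. The next labels were T cell MEM with 348, 432, 408 and 425 CPM, T cell Naive with 194, 41.2, 277 and 594, and T cell EFF with 283, 397, 267 and 354. The lowest NKT library was above the highest T cell MEM and T cell EFF libraries. T cell Naive held only 72 *Ctla4* UMIs in 55 cells, 49 of them in M6. ILC had 127 to 177 CPM and NK cells 69.3 to 93.9, without overlap, whereas NK cells and Myeloid (57.6 to 98.6) overlapped.

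*Icos* was highest in NKT in each of the 4 libraries, at 851, 977, 949 and 1013 CPM (pooled 960.5, [931 to 991]). T cells followed at 773, 647, 903 and 886 CPM, T cell MEM at 519, 586, 602 and 764, T cell Naive at 415, 371, 415 and 764, and T cell EFF at 351, 461, 394 and 496. Each of these labels overlapped with the next, although T cell MEM and T cell EFF did not overlap, and T cell EFF lay above ILC (205 to 283 CPM), and ILC lay above NK cells (132 to 161). NK cells overlapped with Myeloid (79.96 to 143.5 CPM), although they were higher in every library.

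**Figure D1:**
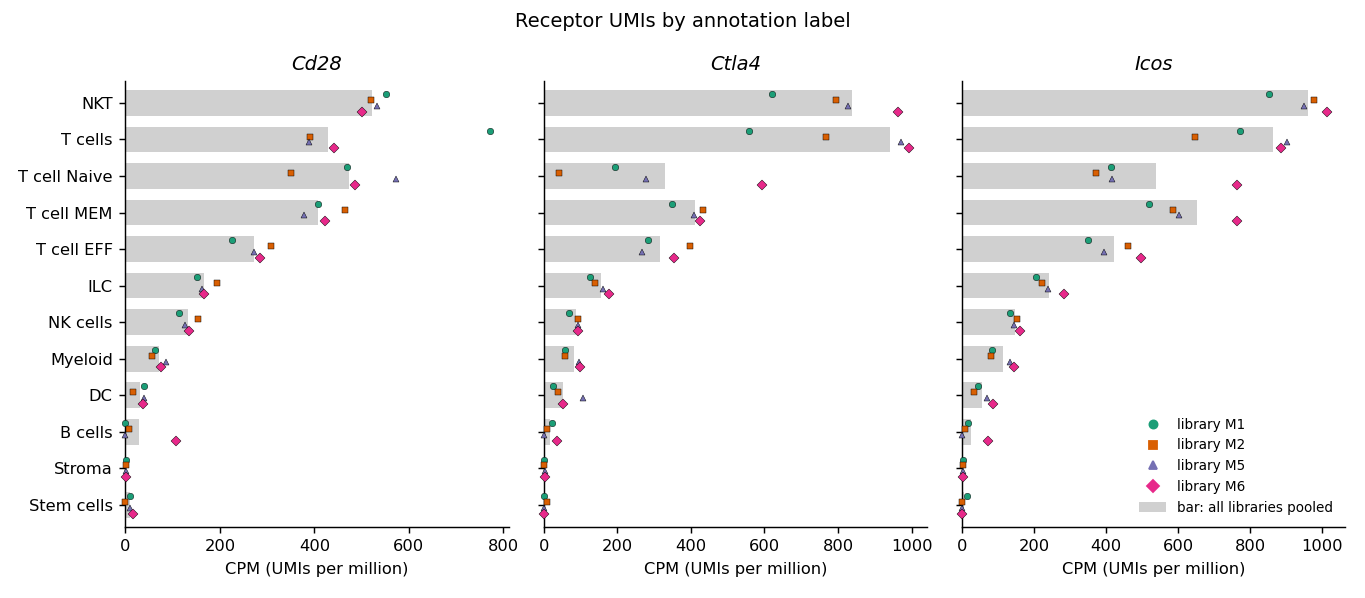
Levels of Cd28, Ctla4 and Icos (x axis, CPM) in each annotation label (y axis); bars pool the 4 libraries and points are single libraries. For all 3 genes the pooled bars of the T cell labels and NKT sit above those of ILC and NK cells, although the Ctla4 point of T cell Naive in M2 is at 41.2 CPM, and Stroma is near 0; the Cd28 point of T cells in M1, at 773 CPM, rests on 11 cells.

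Depth differs between labels, from a median of 2811 UMIs per cell in B cells to 40692 in Stroma, with 4287 in NKT, so shares of cells with a UMI were computed at 2000 UMIs per cell. At that depth *Cd28* was seen in 58.8% of NKT cells [55.1 to 62.4], 45.8% of T cell EFF, 29.9% of ILC and 23.4% of NK cells. *Ctla4* was seen in 72.7% of T cells, 54.2% of NKT, 45.7% of T cell EFF, 20.4% of ILC and 10.3% of NK cells. *Icos* was seen in 77.4% of T cells, 73.4% of NKT, 57.7% of T cell EFF, 36.6% of ILC and 23.6% of NK cells. In Stroma, which should lack these receptors, the shares were 0.291%, 0.372% and 0.453%, and in B cells (median depth 2811 UMIs) 1.37%, 1.98% and 4.23%. The shares in ILC and NK cells were above those of Stroma and B cells. Myeloid had 8.24%, 7.17% and 11.1%, and DC 4.47%, 4.99% and 5.77%. Against Myeloid, the *Ctla4* share of NK cells overlapped (7.19 to 12.25% over libraries, and 5.53 to 8.68% in Myeloid). Without thinning, *Cd28* was seen in 78.6% of NKT, 87.5% of T cell EFF (median depth 10049 UMIs) and 3.61% of Stroma cells, an order of NKT and T cell EFF opposite to that of the levels.

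The 3 receptors were compared between labels as log2 ratios with a pseudocount of 1 CPM. A gene was called higher when its lowest library in 1 label was above its highest in the other. In NKT relative to T cell EFF, *Cd28* was higher by 0.94 (log2 ratios 1.29, 0.75, 0.96 and 0.81 in M1, M2, M5 and M6), *Ctla4* by 1.40 and *Icos* by 1.19, and 3 of 3 receptors were called higher, against 13.5% of the 12871 genes with at least 500 UMIs, a minimum that 7 of 7 members passed, *Cd276* through its Stroma UMIs. Shares of genes, here and below, are of these tested genes. The folds, here and below ratios of pooled CPM without the pseudocount, were 1.92, 2.65 and 2.28. In T cells relative to T cell EFF, 3 of 3 were again called higher, against 6.98% of genes, with *Ctla4* 2.97-fold and *Icos* 2.05-fold higher. In T cell MEM relative to T cell EFF, *Cd28* and *Icos* were called higher, at log2 ratios of 0.58 and 0.63, and *Ctla4* was higher in 4 of 4 libraries but overlapped (0.37), against 10.8% of genes called. In ILC relative to NK cells, *Ctla4* (1.75-fold) and *Icos* (1.64-fold) were called higher and *Cd28* overlapped (1.27-fold), against 10.8% of genes higher and 4.55% lower. The ligands *Cd80* (4.65-fold) and *Cd86* (3.16-fold) were also called higher there, beside summed myeloid markers of 746 CPM in ILC and 196 in NK cells, whose part was not tested. In NKT relative to T cell EFF, *Cd80* was called lower (18.3 and 27.2 CPM), against 16.1% of genes. In T cells relative to T cell EFF, *Cd276* was called lower only through a count of 0, against 20.4% of genes. These 4 comparisons are descriptions, and the first 3 share the T cell EFF values. The regulatory T cell markers given above were also higher in NKT and T cells than in T cell EFF, and the T cell markers were higher in ILC than in NK cells. The CD8 genes *Cd8a* and *Cd8b1* summed to 1072 CPM in T cell EFF, 858 in T cell MEM, 186 in NKT and 9.41 in T cells. *Cd4* had 18.0, 68.6, 145 and 192 CPM in the same labels. The part of all these markers in the ratios was not tested.

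Ratios of 2 receptors within a label can be compared between labels, although their size depends on how well each transcript is captured. UMIs of *Ctla4* per UMI of *Cd28* were 2.24 in M6, 2.49 in M5, 1.96 in M2 and 0.722 in M1 for T cells, and 1.13, 1.53, 1.55 and 1.93 for NKT in M1, M2, M5 and M6 (pooled 1.61, [1.52 to 1.70]). T cell EFF had a ratio of 1.16 (0.977 to 1.29 over libraries), T cell MEM 1.01 (0.854 to 1.08), ILC 0.927 (0.722 to 1.06) and NK cells 0.610 to 0.731. Among labels with at least 20 UMIs of both genes, NK cells had the lowest pooled ratio, although 3 libraries of T cell Naive were lower. The T cell Naive ratio was 0.699 in all and 0.365 without library M6. *Icos* per *Cd28* was 1.84 in NKT, 1.55 [1.51 to 1.58] in T cell EFF, 1.45 in ILC and 1.12 in NK cells (0.988 to 1.199).

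**Figure D2:**
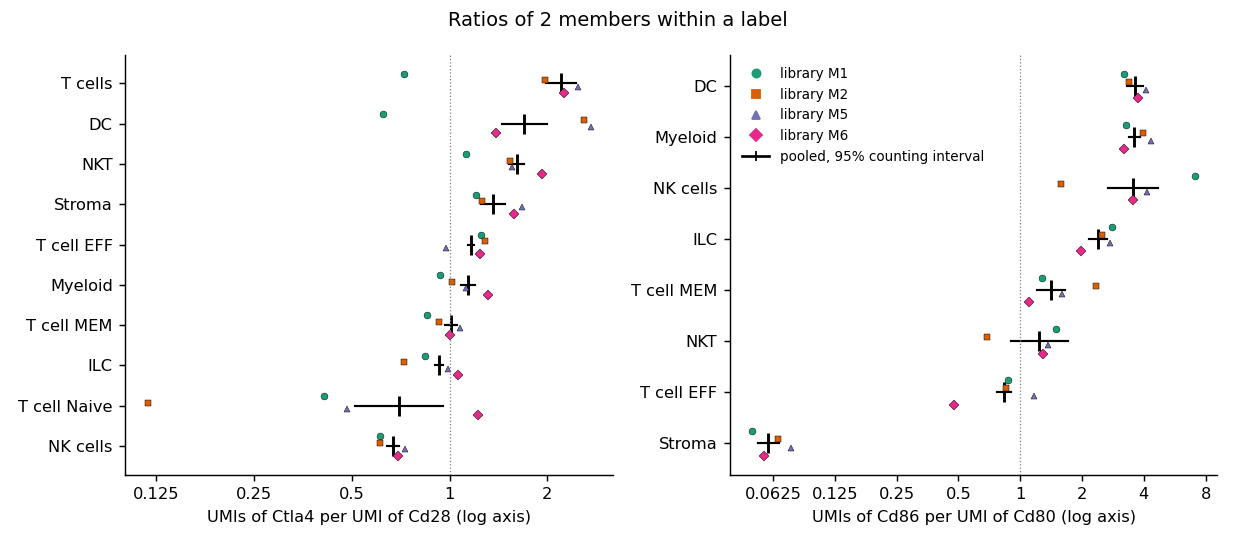
UMIs of Ctla4 per Cd28 UMI (left) and of Cd86 per Cd80 UMI (right), on log axes, in each label with at least 20 UMIs of both genes; black marks pool the libraries with their 95% counting interval and points are single libraries. NK cells had fewer Ctla4 than Cd28 UMIs in every library, and Stroma had 0.0593 Cd86 UMIs per Cd80 UMI where DC had 3.63.

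NK cells and ILC held transcripts of CD3 chains, so both labels were split after seeing the data, by whether a cell kept a UMI of *Cd3d*, *Cd3e* or *Cd3g* when thinned to 2000 UMIs. In the 3660 NK cells without one, *Cd28* had 108, 145, 118 and 125 CPM, *Ctla4* 67.8 to 93.8 and *Icos* 128 to 157. The 558 NK cells with one had 177 CPM of *Cd28*, 113 of *Ctla4* and 167 of *Icos*, and only *Cd28* was higher without overlap, against 2.84% of genes. Cells without a CD3 chain UMI at this depth can hold one at full depth. There, 1109 NK cells without a *Foxp3* UMI had a CD3 chain UMI. Per 1000 UMIs of *Cd3e*, NK cells held 13237 UMIs of *Cd28* (9198 to 20967 over libraries), ILC 2207, T cell EFF 608 and Stroma 486. The NK cell ratio rests on 393 *Cd3e* UMIs. The part of transcripts from T cells in these values was not tested. In the 3111 ILC without a CD3 chain UMI, *Cd28* had 148 CPM, *Ctla4* 123 and *Icos* 191, and in the 1408 with one 196, 205 [199 to 210] and 321, of which *Ctla4* and *Icos* did not overlap between the cell groups, against 11.8% of genes higher and 3.92% lower. The ligands *Cd80* (13.8 CPM with and 4.37 without) and *Cd86* (29.7 and 12.6) were also called higher in the ILC with a CD3 chain UMI.

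Receptor transcripts in Myeloid and DC also went with CD3 transcripts. Myeloid cells with a CD3 chain UMI after thinning (622 cells, median 17651 UMIs) had 131 CPM of *Cd28*, 162 of *Ctla4* and 226 of *Icos*. The 1925 without one (median 7167 UMIs) had 36.8, 34.2 and 51.6, and 3 of 3 receptors were called higher in the former, against 9.97% of genes. *Cd80* and *Cd86* went the other way, at 31.0 and 110 CPM with a CD3 chain UMI and 40.6 and 149 without, both without overlap, against 3.50% of genes lower. In DC the 489 cells without a CD3 chain UMI had 16.6 CPM of *Cd28*, 31.9 of *Ctla4* and 25.1 of *Icos*, and the 50 with one 120, 185 and 245 [217 to 275]. The latter were 6 to 19 cells per library, and no calls were made for this split of DC. Myeloid cells as a whole held 913 *Cd28* UMIs per 1000 *Cd3e* UMIs, a ratio between those of T cell EFF and NKT (1009). DC as a whole held 1079.8 *Cd28*, 1836 *Ctla4* and 1933 *Icos* UMIs per 1000 *Cd3e* UMIs. These were above the pooled NKT ratios of 1009, 1623 and 1858, with overlapping libraries, and rest on 238 *Cd3e* UMIs. The part of transcripts from T cells in these values was not tested.

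The T cell labels and NKT were also divided by *Foxp3*, the factor that defines regulatory T cells, and by *Cd4* and the CD8 chains, among cells with a CD3 chain UMI at full depth, also after seeing the data. The pick by *Foxp3* did not leave out cells with a CD8 chain UMI, and 279 of its cells had the label T cell EFF. The 868 cells with a *Foxp3* UMI had 926, 981, 559 and 854 CPM of *Ctla4* in M1, M2, M5 and M6 (pooled 714, [699 to 729]). The 401 cells with *Cd4* but no *Foxp3* or CD8 chain had 516, 668, 549 and 426, and the 3824 with a CD8 chain and neither *Cd4* nor *Foxp3* had 283, 389, 239 and 296. *Ctla4* was therefore higher in the *Foxp3* cells than in the CD8 cells without overlap, and overlapped between the *Foxp3* and *Cd4* cells, although higher in the former in 4 of 4 libraries. *Cd28* had another order. It was 650.2, 571, 645 and 582 CPM in the *Cd4* cells, 321, 358, 304 and 355 in the *Foxp3* cells and 238, 321, 289 and 317 in the CD8 cells. The *Cd4* cells were above both others without overlap. *Icos* was 864, 895, 642 and 861 CPM in the *Foxp3* cells and 673, 1090, 893 and 903 in the *Cd4* cells, which overlapped, and 352, 456, 383 and 487 in the CD8 cells, below both. Against the CD8 cells, 2 of 3 receptors were called higher in the *Foxp3* cells and 3 of 3 in the *Cd4* cells, where 9.65% and 9.21% of tested genes were called higher and 6.10% and 18.1% lower. In *Foxp3* relative to *Cd4* cells, *Cd28* was the only receptor called lower, against 3.47% of genes, and none was called higher, against 8.38%. At 2000 UMIs per cell, *Ctla4* was seen in 74.9% of *Foxp3* cells, 45.7% of *Cd4* cells and 43.9% of CD8 cells, and *Cd28* in 51.2%, 64.6% and 47.5%. Cells with more UMIs pass these picks more easily, and the median depth was 6606, 5003 and 8999 UMIs. The planned picks took cells of all labels, and their CD8 pick kept *Foxp3* cells. There *Cd28* overlapped, at 176 to 302 CPM in *Cd4*, 152 to 232 in *Foxp3* and 158.5 to 221 in CD8 cells. *Ctla4* did not overlap between *Foxp3* (404 to 621) and *Cd4* cells (107 to 304). *Icos* of CD8 cells (233 to 356) overlapped with *Foxp3* (342 to 575) and *Cd4* cells (211 to 436). These calls thus depend on the pick.

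**Figure D3:**
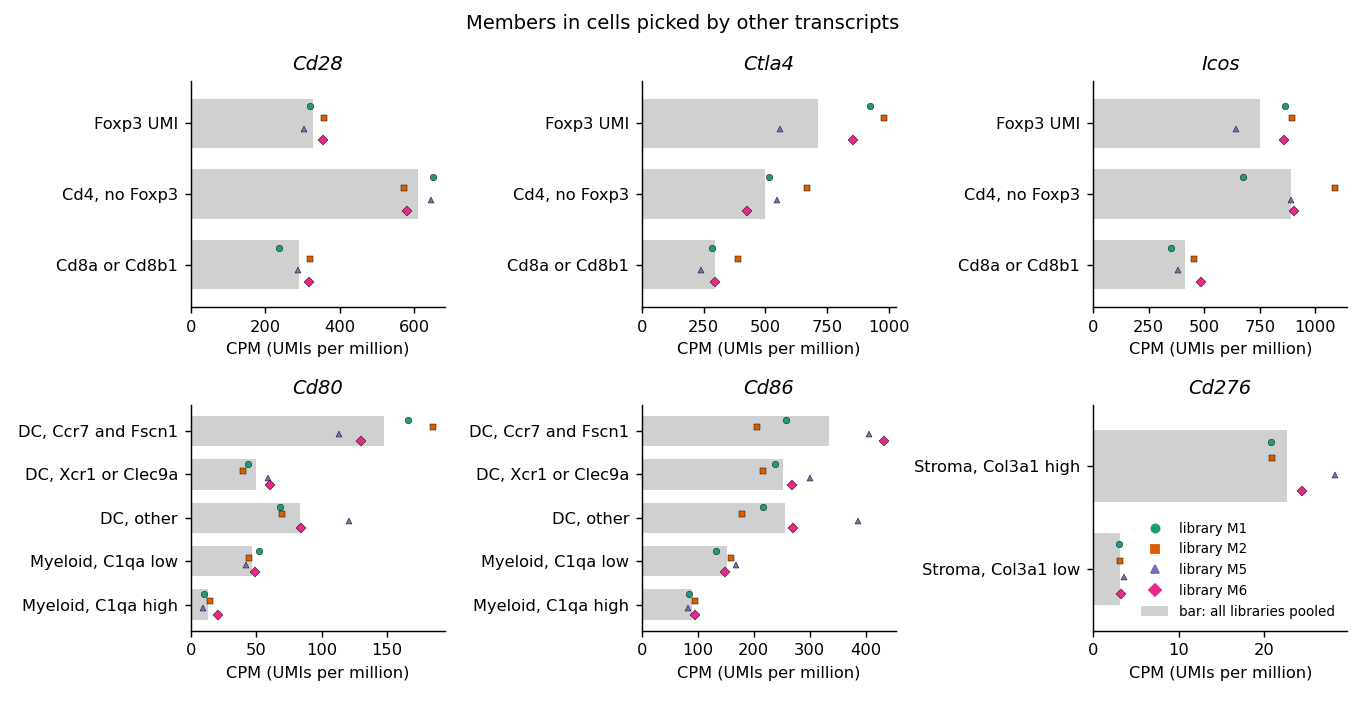
Levels (x axes, CPM) of the receptors in T-labelled cells picked by Foxp3, Cd4 or CD8 transcripts (top), of Cd80 and Cd86 in DC and Myeloid cells picked by other transcripts (bottom left and middle), and of Cd276 in Stroma cells with at least 1000 CPM (high) or less (low) of Col3a1 (bottom right); bars pool the libraries and points are single libraries. By pooled level, Cd28 is highest in Cd4 cells without Foxp3, Cd80 in DC with Ccr7 and Fscn1, and Cd276 in the Stroma cells high in Col3a1. In M5, Cd80 had 121 CPM in the other DC and 113 in those with Ccr7 and Fscn1.

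Detection of the receptors in the same cells was counted in 1 random thinning to 2000 UMIs. In T cell EFF, *Icos* was seen in 65.7% of 1642 cells with a *Ctla4* UMI and 51.5% of 1903 without. The shares were 83.1% and 61.0% in NKT, 72.1% and 60.4% in T cell MEM and 77.7% and 66.1% in T cells, higher with *Ctla4* in 4 of 4 libraries for each label. *Icos* was seen in 62.5% of cells with *Cd28* and 54.2% without in T cell EFF, 69.98% and 60.2% in T cell MEM, 74.3% and 71.0% in NKT and 76.0% and 72.3% in T cells, higher with *Cd28* in 4, 3, 3 and 4 of 4 libraries. In NKT *Ctla4* was seen in 55.9% of cells with *Cd28* and 51.4% without, in T cells in 70.2% of both, in T cell EFF in 51.2% and 42.2%, and in T cell MEM in 47.8% and 44.5%, higher with *Cd28* in 2, 1, 4 and 3 of 4 libraries. All 3 receptors were seen in 28.8% of T cells, 27.1% of NKT, 20.3% of T cell MEM, 15.8% of T cell EFF, 3.52% of ILC, 0.996% of NK cells and 0.942% of Myeloid cells. None of the 3 was seen in 54.6% of NK cells and 99.0% of Stroma cells.

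Among the ligands, *Cd80* was highest in DC in every library, at 72.6, 60.8, 81.5 and 80.8 CPM (pooled 73.1, [67.3 to 79.2]). Myeloid cells had 34.5, 34.9, 33.4 and 43.7 CPM, without overlap with DC. T cell EFF had 22.0, 26.9, 24.1 and 37.6 and T cell MEM 16.5, 20.8, 24.3 and 31.9, and the T cell EFF range overlapped with that of Myeloid. Stroma had 6.89, 6.35, 7.501 and 8.85 CPM. Because Stroma cells are many and deep, this low level still made up 52.6% of the 9353 *Cd80* UMIs of the table. NK cells had 1.72 CPM and T cell Naive no UMI in 55 cells, which allows up to 13.8 CPM.

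*Cd86* had 233, 207, 335 and 304 CPM in DC (pooled 265, [254 to 276]), 109, 239, 287 and 276 in B cells (97 UMIs) and 113, 138, 145 and 140 in Myeloid. DC and B cells overlapped, and DC lay above Myeloid. The next label, T cell MEM, had 36.6 CPM, below every Myeloid library, and Stroma had 0.422 CPM. *Cd86* was seen at 2000 UMIs in 35.0% of DC, 30.4% of B cells [22.0 to 39.8] and 22.9% of Myeloid cells, against 0.832% of NK cells (median depth 5397 UMIs) and 0.0970% of Stroma. For *Cd80* the shares were 12.5% of DC, 9.46% of Myeloid, 5.71% of T cell EFF and 1.52% of Stroma, against 0.197% of NK cells.

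*Icosl*, the ligand of ICOS, had 550 UMIs in all. It reached 10.15, 9.52, 12.1 and 8.69 CPM in DC (82 UMIs) and 3.65, 3.25, 2.32 and 2.84 in Myeloid (113 UMIs), without overlap, and was seen in 1.80% of DC [0.893 to 3.39]. B cells held only 3 UMIs of it, and ILC and NK cells had 2.35 and 1.92 CPM. Stroma had 0.0506 CPM.

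*Cd276* had its highest measured level in Stroma, which held 92.4% of its 2541 UMIs. Its level there was 3.26, 3.31, 3.88 and 3.49 CPM, against 3.18, 1.76, 2.09 and 2.07 in Myeloid (86 UMIs), so the lowest Stroma and the highest Myeloid library were nearly equal. DC had 8 UMIs. T cell Naive, Stem cells and B cells had none, which allows up to 13.8, 4.43 and 6.78 CPM and leaves these labels unplaced. At 2000 UMIs, *Cd276* was seen in 0.665% of Stroma [0.544 to 0.805] and 0.589% of Myeloid cells, so the share did not separate them at this depth. At 10000 UMIs, which left out 1614 of the Stroma cells, *Cd276* was seen in 3.37% of Stroma, *Cd80* in 6.75% [6.34 to 7.17] and *Cd86* in 0.383%, beside the receptors *Cd28* in 1.18%, *Ctla4* in 1.58% and *Icos* in 1.91%.

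**Figure D4:**
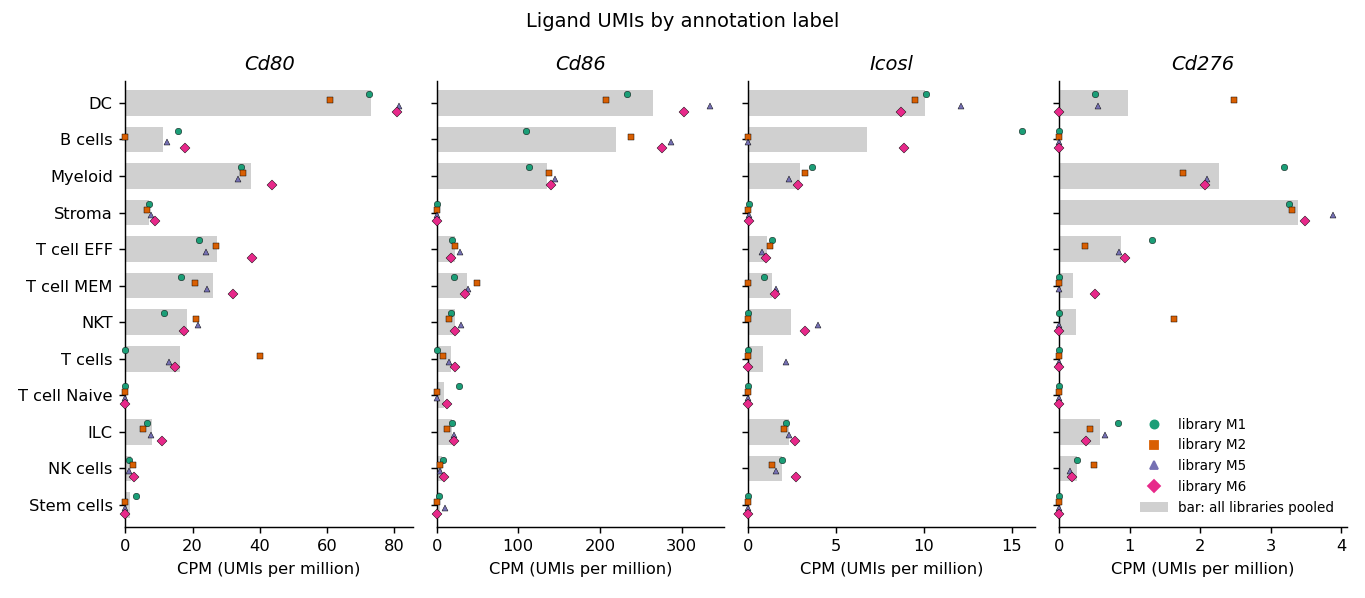
Levels of Cd80, Cd86, Icosl and Cd276 (x axes, CPM) in each annotation label (y axis); bars pool the 4 libraries and points are single libraries. By measured pooled level, Cd80, Cd86 and Icosl are highest in DC and Cd276 in Stroma. The B cell points of Icosl, highest in 2 libraries, rest on 3 UMIs. T cell Naive had no UMI of Icosl or Cd276, which allows up to 13.8 CPM and leaves it unplaced for both.

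In DC relative to Myeloid, *Cd80* was 1.95-fold, *Cd86* 1.97-fold and *Icosl* 3.38-fold higher, each higher in 4 of 4 libraries. Of 4 ligands, 3 were called higher, against 12.1% of tested genes, and *Cd276* overlapped. In B cells relative to Myeloid, *Cd86* was 1.63-fold higher but lower in M1 and overlapped. *Cd80* was called lower from 5 UMIs, and *Cd276* was called lower only because B cells held none, so 0 of 4 were called higher, against 10.3% of genes, and 2 lower, against 28.8%. In Stroma relative to Myeloid, *Cd80* was 5.27-fold, *Cd86* 319-fold and *Icosl* 58.8-fold lower, and *Cd276* was 1.499-fold higher. Among the Stroma cells under 1000 CPM of *Col3a1*, described below, *Cd276* had 3.03 CPM in M1, under the 3.18 of Myeloid in M1, so without the cells high in *Col3a1* the ranges overlap. The *Cd86* and *Icosl* folds rest on 292 and 35 UMIs in Stroma, and with the pseudocount their log2 ratios were -6.575 and -1.92. That is 1 of 4 called higher, against 40.4% of tested genes, and 3 lower, against 35.4%.

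*Cd80* and *Cd86* came in different proportions. DC had 3.63 *Cd86* UMIs per *Cd80* UMI (3.21 to 4.12 over libraries) and Myeloid 3.59 (3.20 to 4.34), values that overlapped. NK cells had 3.53, from 68 *Cd80* UMIs and with libraries from 1.58 to 7.13. ILC had 2.40 (1.98 to 2.79), T cell MEM 1.41, NKT 1.24 and T cell EFF 0.832 (0.478 to 1.17). Stroma had 0.0593 (0.0494 to 0.0763). In T cell EFF the ratio lay below the DC and Myeloid values in every library.

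T cell EFF held transcripts of 5 myeloid markers (*Lyz2*, *C1qa*, *C1qb*, *Csf1r*, *Adgre1*) at a summed 493 CPM (330 to 656 over libraries, none of the 5 at 0), against 8660 in Myeloid. In T cell EFF cells with a UMI of these markers after thinning (757 cells), *Cd80* had 22.1, 29.8, 24.6 and 40.5 CPM, and in the 2788 without one 21.9, 26.1, 23.9 and 36.9. The *Cd80* ranges overlapped, although *Cd80* was higher with a marker in 4 of 4 libraries. Cells without a marker UMI after thinning (median 10476 UMIs) can hold one at full depth. *Cd86* was 39.2 CPM with and 17.2 without, and was called higher with a marker, against 7.17% of genes. T cell MEM gave 25.7 and 26.1 CPM of *Cd80* and 54.8 and 26.7 of *Cd86*. In ILC both ligands moved with the markers, with 16.7 and 4.51 CPM of *Cd80* and 46.6 and 8.13 of *Cd86*, both called higher, against 13.9% of genes. Per 1000 UMIs of *Lyz2*, T cell EFF held 72.9 *Cd80* UMIs (47.1 to 110 over libraries), where Myeloid held 5.65 (4.598 to 6.79) and Stroma 535. The part of transcripts from myeloid cells in these values was not tested.

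In Stroma, *Cd80* and *Cd276* did not go with a leukocyte transcript. Stroma cells with a *Ptprc* UMI (2574 cells, median 53304 UMIs) had 7.30 CPM of *Cd80* and 3.49 of *Cd276*, and the 13113 without (median 38195 UMIs) had 7.07 [6.84 to 7.29] and 3.37, all with overlapping libraries. *Cd28* (4.30 and 0.554 CPM), *Ctla4* (4.59 and 1.08), *Icos* (7.15 and 1.11) and *Cd86* (0.838 and 0.314) were called higher with *Ptprc*, against 5.02% of genes. The 244 Stroma cells with at least 1000 CPM of the fibroblast collagen gene *Col3a1* had 20.9, 20.9, 28.3 and 24.4 CPM of *Cd276*, and the other 15443 had 3.03, 3.19, 3.57 and 3.28. *Cd276* was one of the 23.9% of genes called higher there, with 26.8% lower. *Cd28* was also called higher (4.58 CPM from 33 UMIs, and 1.29). *Icos* was higher in 4 of 4 libraries but overlapped (5.70 and 2.31 CPM). *Cd80*, at 7.92 and 7.10 CPM, overlapped.

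Within DC, the 76 cells with both *Ccr7* and *Fscn1*, markers of mature, migrating DC, had 166, 185, 113 and 130 CPM of *Cd80*. The 271 other DC with *Xcr1* or *Clec9a*, markers of cross-presenting DC, had 43.6, 39.8, 58.8 and 60.8, and the remaining 209 had 68.3, 69.9, 121 and 84.5. The median depth of these groups was, in that order, 11612, 12883 and 7206 UMIs. *Cd80* was called higher in the first than in the second group, against 5.56% of genes higher and 10.4% lower. The receptor *Ctla4* was called lower in the first group, with 4.11 to 34.25 CPM over libraries from 28 UMIs, against 34.85 to 160.3. *Cd86* had 257, 205, 405 and 433 CPM in the first and 239, 216, 300.1 and 269 in the second, and overlapped. Within Myeloid, the 542 cells with at least 1000 CPM of the macrophage gene *C1qa* had 10.3, 15.0, 9.45 and 20.8 CPM of *Cd80* and 82.6 to 95.8 of *Cd86*. The other 2138 had 52.2, 44.8, 42.2 and 48.8 of *Cd80* and 133 to 168 of *Cd86*. Median depth was 15607 UMIs in the former and 7352 in the latter. Of the 4 ligands, *Cd80*, *Cd86* and *Cd276* (13 UMIs in the former cells) were called lower in the cells high in *C1qa*, against 7.86% of genes. In DC, *Cd86* was seen in 62.3% of the 69 cells with a *Cd80* UMI after thinning and 33.0% of the 470 without. In Myeloid the shares were 27.0% and 22.3%, higher with *Cd80* in 4 of 4 libraries in both labels.

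Over 38 sums of a label and a library with at least 20 cells, the log2(CPM + 1) levels of *Ctla4* and *Icos* correlated at r = 0.989, those of *Cd28* and *Icos* at 0.966 and those of *Cd28* and *Ctla4* at 0.932. *Cd86* correlated with *Icosl* at 0.66 and with *Cd80* at 0.542. These sums share libraries and labels, so the values describe the table. Of 12871 genes, those most like *Cd28* included *Cd247* and *Trbc2* (r = 0.975 and 0.97), the CD3 zeta chain and a T cell receptor constant region. Those most like *Ctla4* and like *Icos* were, beside each other, *Tnfrsf18*, which encodes GITR (0.983 and 0.987), and *Cd27* (0.975 and 0.98). For *Cd86* they were *Cd83*, *Ncf1* and *Spi1* (0.955, 0.947 and 0.932), for *Cd80* *Agpat4*, *Phf11a* and *Il1r2* (0.935, 0.843 and 0.829), for *Icosl* *Syngr2*, *Fam174a* and *Snap23* (0.837, 0.811 and 0.797), and for *Cd276* they included *Sdsl* and *Ccl2* (0.921 and 0.904). With rank correlation, the 3 genes most like *Icos* were the same, and for every other member at least 1 of the 3 changed.

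A list of 7 genes held other family members and *Tnfrsf14*, which encodes HVEM, a TNF receptor family member that binds BTLA. Of these, 6 had at least 500 UMIs, and *Vtcn1* did not. In NKT relative to T cell EFF, where 13.5% of tested genes were called higher and 16.1% lower, the ligand gene *Cd274* (PD-L1, 128 and 67.8 CPM), *Btla* (10.96 and 5.38) and *Tnfrsf14* (9.01 and 5.42) were called higher. *Pdcd1*, which encodes the inhibitory receptor PD-1, was called lower (254 CPM, 183 to 326 over libraries, and 567, 468 to 764), opposite to *Ctla4*. *Pdcd1* was also called lower in T cells relative to T cell EFF (64.4 to 147.9 CPM over libraries), as was *Pdcd1lg2*, and *Vsir* was called higher, where 20.4% and 6.98% of genes were. In T cell MEM relative to T cell EFF none of the 6 was called, and in ILC relative to NK cells 4 were called higher, against 10.8% of tested genes, among them *Pdcd1* (87.6 and 10.3 CPM). In DC relative to Myeloid *Btla*, an inhibitory receptor, was called higher (88.9 and 5.13 CPM) and *Pdcd1* and *Vsir* lower, against 12.1% of genes higher and 15.5% lower, while *Cd274* overlapped (158 and 367). Of the 6, 1 was called higher and 5 lower in B cells relative to Myeloid (10.3% and 28.8% of tested genes; *Tnfrsf14* at a count of 0 in B cells), and 0 and 6 in Stroma (40.4% and 35.4%).

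Of 19 genes that act behind CD28 and ICOS, 8 were called higher and 1 lower in NKT relative to T cell EFF, where 13.5% and 16.1% of tested genes were, with a median log2 ratio of 0.35 against -0.04 over tested genes. Among them were the adaptor genes *Lat* (249.6 and 178 CPM) and *Grap2* (101 and 58.4), *Malt1* (245 and 131) and *Nfkb1* (593 and 338), and the kinase gene *Akt1* was lower (73.3 and 108). In T cell MEM relative to T cell EFF 11 were called higher and 2 lower, where 10.8% and 17.1% of tested genes were, with a median of 0.39, and *Akt1* was again lower (85.3 CPM). In T cells relative to T cell EFF 5 were called higher and 0 lower (6.98% and 20.4% of tested genes), and in ILC relative to NK cells 7 and 3 (10.8% and 4.55%). Relative to Myeloid, 5 were called higher and 7 lower in DC (12.1% and 15.5% of tested genes), 3 and 7 in B cells (10.3% and 28.8%) and 1 and 17 in Stroma (40.4% and 35.4%). The call of *Il2* as lower in B cells rests on a count of 0, which allows up to 6.78 CPM, above its Myeloid levels. Of 10 genes for turnover and traffic, 3 were called higher and 2 lower in NKT relative to T cell EFF (13.5% and 16.1% of tested genes). *Lrba*, whose protein keeps CTLA-4 from degradation, was higher there (55.5 CPM, 30.3 to 64.9, and 26.0, 22.6 to 28.0), in T cells (48.7) and in T cell MEM (36.0). *Rc3h1*, which encodes Roquin-1, a repressor of *Icos* mRNA, was higher in NKT (66.5 and 47.2 CPM). In T cell MEM relative to T cell EFF 3 of the 10 were called higher and 1 lower (10.8% and 17.1% of tested genes), in T cells 1 and 0 (6.98% and 20.4%), and in ILC relative to NK cells 3 and 0 (10.8% and 4.55%). Relative to Myeloid the counts were 3 and 3 in DC (12.1% and 15.5%), 3 and 2 in B cells (10.3% and 28.8%) and 1 and 5 in Stroma (40.4% and 35.4%).

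A last list of 10 genes, drawn up around CD40 and antigen presentation, also held class II genes and genes known as marks of mature DC, among them the *Ccr7* and *Fscn1* used above. Of these, 9 had at least 500 UMIs. In DC relative to Myeloid 8 of the 9 were called higher and 0 lower, where 12.1% and 15.5% of tested genes were, with a median log2 ratio of 1.365 against -0.014 over tested genes. These were *Fscn1* (280 and 12.7 CPM), *Ccr7* (456 and 81.9), *Ciita* (72.4 and 22.8), *H2-Ab1* (4507 and 1448), *Irf8* (1563 and 606), *Cd83* (474 and 193), *Relb* (123 and 74.35) and *Irf4* (13.0 and 8.34). *Cd40* itself overlapped. In B cells relative to Myeloid 5 were called higher, *Cd83* among them (608 CPM), and 1 lower (10.3% and 28.8% of tested genes), and in Stroma relative to Myeloid 1 higher and 7 lower (40.4% and 35.4%). Relative to T cell EFF, 0 were called higher and 1 lower in NKT (13.5% and 16.1% of tested genes), 0 and 2 in T cell MEM (10.8% and 17.1%) and 2 and 2 in T cells (6.98% and 20.4%), and in ILC relative to NK cells 6 and 1 (10.8% and 4.55%).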

How the data were processed

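CD45+-enriched cells of CT26 tumors were measured by 3′ single-cell mRNA-seq. The authors counted UMIs with Cell Ranger 3.0.2 (submitters' processing notes) on GRCm38, kept cells above a UMI minimum and deposited raw counts per gene and cell, with library and cell type labels that came from correlation with ImmGen profiles. In each of the 33961 cells the counts add up to the UMI total given with it. The 7 members and all lists were chosen with earlier results of these data known.

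Counts were summed by label and library in Python 3.11.15 (pandas 2.3.3, numpy 2.4.6, scipy 1.17.1), drawn with matplotlib 3.10.9, and tested on simulated data. A share at 2000 UMIs is the mean over cells of the chance to keep a UMI when thinned, leaving out shallower cells. Doublets were scored with scrublet (scanpy 1.11.5, expected rate 0.06); cells over 0.25 (60 to 271 per library) stayed in, and were left out in an alternative, as were 3787 cells over 10% mitochondrial UMIs. A count of 0 was taken to allow 3. Named genes are the members, the listed genes with a value, and the 3 genes with the highest Pearson's r to each member; 2 of these genes are not reported here. The splits by CD3 chain, myeloid marker and *Ptprc* UMIs, the picks within T cell labels and the thinning to 10000 UMIs were added after seeing the data. Motifs were searched in RefSeq promoters.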

Additional observations from a re-analysis of the deposited data

How the results depend on the processing

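No paired analysis was possible because no replicate number of the samples could be tied to a library, so treatment groups could not be paired. Labels were compared without a test, by log2 ratios within each library and by calls on the ranges over libraries. A call does not match values by library, so a gene higher in every library can still overlap. The 24 planned log2 ratios of members between labels, recomputed 216 times, never changed sign, and 46 values left the counting interval. The alternatives were other pseudocounts, means over single cells, leaving out cells over the mitochondrial or doublet limit, and leaving out 1 library. All of them pooled libraries. In single libraries the sign differed from the pooled one for some ligands relative to Myeloid. These were *Icosl* in B cells (-2.087 in M2 and -1.729 in M5, pooled 0.968), *Cd86* in B cells (-0.05 in M1, pooled 0.699) and *Cd276* in DC (0.336 in M2, pooled -0.72). The ligand ratios in ILC relative to NK cells, and relative to T cell EFF, were not among the 24. Averaging the CPM of single cells gave 604.4 for *Cd28* and 1029 for *Icos* in NKT, 1045 for *Ctla4* in T cells and 86.0 for *Cd80* in DC. Without doublet-scored cells *Ctla4* in T cells had 1001 CPM and *Cd86* in DC 277. At 1000 UMIs, 4000 UMIs and without thinning, shares were 39.5%, 75.5% and 78.6% (*Cd28*, NKT), 54.9%, 88.8% and 88.2% (*Ctla4*, T cells), 57.0%, 90.4% and 92.1% (*Icos*, T cells), 7.40%, 21.9% and 41.0% (*Cd80*, DC), 21.2%, 51.3% and 65.3% (*Cd86*, DC), 0.889%, 4.09% and 11.5% (*Icosl*, DC) and 0.337%, 1.33% and 12.4% (*Cd276*, Stroma). Both the depth and the cells deep enough to be kept change between these shares.

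Leaving out 1 library gave 516 to 535 CPM for *Cd28* and 929 to 983 for *Icos* in NKT, 899.7 to 963 for *Ctla4* in T cells, 70.6 to 78.2 and 245 to 289 for *Cd80* and *Cd86* in DC, and 3.32 to 3.48 for *Cd276* in Stroma. The shares at 2000 UMIs ranged over 57.9 to 60.0% (*Cd28*), 68.9 to 74.5% (*Ctla4*), 77.0 to 77.7% (*Icos*), 12.3 to 12.7% (*Cd80*), 34.3 to 35.7% (*Cd86*), 1.64 to 1.88% (*Icosl*) and 0.653 to 0.680% (*Cd276*) in the same labels as above. *Ctla4* per *Cd28* ranged over 1.13 to 1.26 in T cell EFF and 1.43 to 1.71 in NKT, and *Cd86* per *Cd80* over 0.6915 to 0.992 in T cell EFF and 3.39 to 3.86 in Myeloid. The fewest UMIs were those of *Icosl*, 550, and *Cd276*, 2541. Over 23764 genes with a UMI, the shares called higher and lower were 7.65% and 10.7% (NKT), 6.15% and 10.1% (T cell MEM) and 3.82% and 15.1% (T cells) relative to T cell EFF, 6.82% and 2.77% (ILC relative to NK cells), and 7.37% and 10.2% (DC), 5.77% and 20.9% (B cells) and 29.2% and 23.2% (Stroma) relative to Myeloid.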
